A study of Mus musculus with 12 samples.

Results

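The IFIT, MX and ISG15 antiviral effectors are 10 genes taken by symbol from the count table: Ifit1, Ifit2, Ifit3, Ifit3b, Isg15, Rsad2, Cmpk2, Mx1, Mx2 and Bst2. All 10 were found among 16283 genes and all 10 passed the filter on low counts, which left 13601 genes to test. RNA was sequenced from 4T1, an established BALB/c mouse line of mammary carcinoma cells, in 12 libraries that form 6 groups of 2. One line carried sgRNA1 against Cebpd, a second carried sgRNA2 against Cebpd, and the control line had a guide to the Rosa26 locus, which serves as a neutral site. Each line was given interferon gamma (IFN-gamma) at 20 ng/ml for 24 hours or vehicle. The series asks how cells with and without Cebpd, which encodes the transcription factor C/EBPδ, respond to this cytokine. The labels do not say whether a guide line is a clone or a pool, so an effect of a guide cannot be told apart from a difference between lines. Nor do they say whether a group's 2 libraries are from separate cultures, and the p-values therefore measure a spread that may be technical.

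These genes encode antiviral effector proteins, and they are textbook targets of type I interferon. Type I interferon activates the complex ISGF3, which binds the interferon-stimulated response element (ISRE). IFN-gamma acts through the kinases JAK1 and JAK2 on genes with a gamma-activated site (GAS), and reaches ISRE genes largely through induced IRF1 and through ISGF3-like complexes. Ifit1 encodes a sensor of viral RNA caps, and Ifit2, Ifit3 and Ifit3b encode related tetratricopeptide repeat proteins. Isg15 encodes a ubiquitin-like modifier. Rsad2 encodes viperin, which turns CTP into a chain-terminating analogue, and Cmpk2 encodes a mitochondrial nucleotide kinase that can supply CTP. Mx1 and Mx2 encode dynamin-like GTPases, whose genes are defective in most laboratory mouse strains. Bst2 encodes tetherin, which holds budding virus particles at the cell surface.

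The 4 IFIT members lie within 99.3 kb of chromosome 19, from 34550694 to 34650009 (GRCm38, GENCODE vM21), where 7 genes are annotated. Rsad2 (chromosome 12, 26442746 to 26456452, minus strand) and Cmpk2 (26469204 to 26479837, plus strand) are neighbours in opposite orientation with 12751 bases between them. Mx1 (chromosome 16, 97447035 to 97462907) and Mx2 (97535308 to 97560900) are neighbours too, and Mx2 is annotated as a polymorphic pseudogene. Isg15 lies on chromosome 4 from 156199424 to 156200818 and Bst2 on chromosome 8 from 71534255 to 71537456. None of the members' exons overlap another annotated gene. Ifit3 and Ifit3b are near copies: 51.2% of the 50-base windows of the Ifit3 transcript also occur in Ifit3b, so reads could be split or lost between them and their separate values are uncertain to that extent. The corresponding share, with any other gene, was 7.13% for Ifit1 (mostly with Ifit1bl2), 4.37% for Mx1 and 4.38% for Mx2 (mostly with each other), 3.96% for Isg15, and 0% for Ifit2, Rsad2, Cmpk2 and Bst2.

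The stretches below are shown because 6 of the 8 members with a promoter entry hold the ISRE letters there. The entries are RefSeq promoters (GRCm38.p6, from 250 bases before to 50 after the start), matched by symbol for all but Mx1 and Mx2. The letters searched, on both strands, were GAAA, any 2 bases and GAAA again for ISRE, TTCNNNGAA for GAS and TTGCNNAA for C/EBP. Each line runs 5′ to 3′ on the strand of the gene, with the matched letters in capitals. Isg15 and Bst2 read the ISRE letters directly, in 3 and 2 overlapping matches, and the others read its reverse complement. The last line is the GAS match of Ifit2.
Isg15, chr4:156200871-156200900, minus strand: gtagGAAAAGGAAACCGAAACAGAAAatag
Bst2, chr8:71537580-71537609, minus strand: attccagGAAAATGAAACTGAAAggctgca
Rsad2, chr12:26456554-26456581, minus strand: tggtccaacTTTCATTTTCagaaaacag
Ifit1, chr19:34640776-34640803, plus strand: aggcttcagTTTCACTTTCcagtctcag
Ifit1, chr19:34640795-34640822, plus strand: cagtctcagTTTCAGTTTCtcactgctg
Ifit3, chr19:34583364-34583391, plus strand: agtggtaagTTTCACTTTCctcttctgg
Ifit3, chr19:34583398-34583425, plus strand: ttaagtctgTTTCAGTTTCtactttcct
Ifit2, chr19:34550444-34550470, plus strand: catgggagcTTCCTGGAAgaatggata

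Both Ifit3 stretches recur letter for letter before Ifit3b. The ISRE letters occur in 3.44% of all 32841 promoter windows of this length, the GAS letters in 8.3% and the C/EBP letters in 10.8%. Relative to the start, the first ISRE base lies at -104 and -85 in Ifit1, -156 and -122 in Ifit3, -188 and -154 in Ifit3b, -120 in Rsad2, -78 in Isg15 and -130 in Bst2. GAS letters were found for Ifit2, in 1 of its 2 windows, and for Bst2, where they share bases with the first ISRE match. Every other member with an entry had 1 window. The windows of Ifit2 and Cmpk2 hold no ISRE letters, and none of the 8 members' windows holds the C/EBP letters. The genome is of C57BL/6 mice and the cells are BALB/c, so these are letters of a reference and not of the cells.

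Total counts were 16912710 to 24784371 per library. The test was edgeR's quasi-likelihood test, its p-values adjusted by Benjamini-Hochberg over all genes tested and called below 0.05, in 1 fit of all 12 libraries scaled by TMM. Levels are in CPM, counts scaled to library size, with ± the SD of 2 libraries. Fold changes are log2 ± SE. The targeted gene, Cebpd, was not consistently low in the guide lines. Its counts were 980 and 918 with sgRNA1, 563 and 749 with sgRNA2 and 1106 and 956 in control after IFN-gamma. In vehicle they were 271 and 222 with sgRNA1, 204 and 150 with sgRNA2 and 176 and 136 in control. It was lower than control with sgRNA2 after IFN-gamma (-0.78 ± 0.09), higher with sgRNA1 in vehicle (0.74 ± 0.12) and not called in the other comparisons with control (-0.17 ± 0.08 with sgRNA1 after IFN-gamma, 0.24 ± 0.13 with sgRNA2 in vehicle). All directions below are therefore those of the lines as labelled. Where the guides cut is not stated in the sources used, and whole-gene counts do not show a small edit. Of the 3746 exon bases of Cebpd, 562 overlap another annotated gene, Spidr, and how reads there were counted is not stated. Of 7 epithelial marker genes listed, 6 were in the table and summed to 2518 to 3324 CPM per library, whereas 2 of 3 endothelial markers were in the table and summed to at most 0.483 CPM. None of the 5 lymphocyte and 3 erythroid markers listed was in the table, so they gave no level, and the other lists are given with the vehicle comparison. In bulk RNA, fewer cells with a transcript and less of it per cell cannot be told apart.

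IFN-gamma raised every one of the 10 effectors in every line. In control cells 10 of 10 rose, where 36.4% of all genes tested rose. Their median log2 fold change was 5.73, against 0.01 over all genes. In sgRNA1 cells 10 of 10 rose (31.7% of all genes) with a median of 4.76, and in sgRNA2 cells 10 of 10 rose (30.5% of all genes) with a median of 3.25. For each of the 10 members, both IFN-gamma libraries of a line lay above both of its vehicle libraries, as they did for 42.9% of all genes tested in control cells, 40.4% in sgRNA1 cells and 38.6% in sgRNA2 cells. The plot of levels shows each library.

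**Figure D1:**
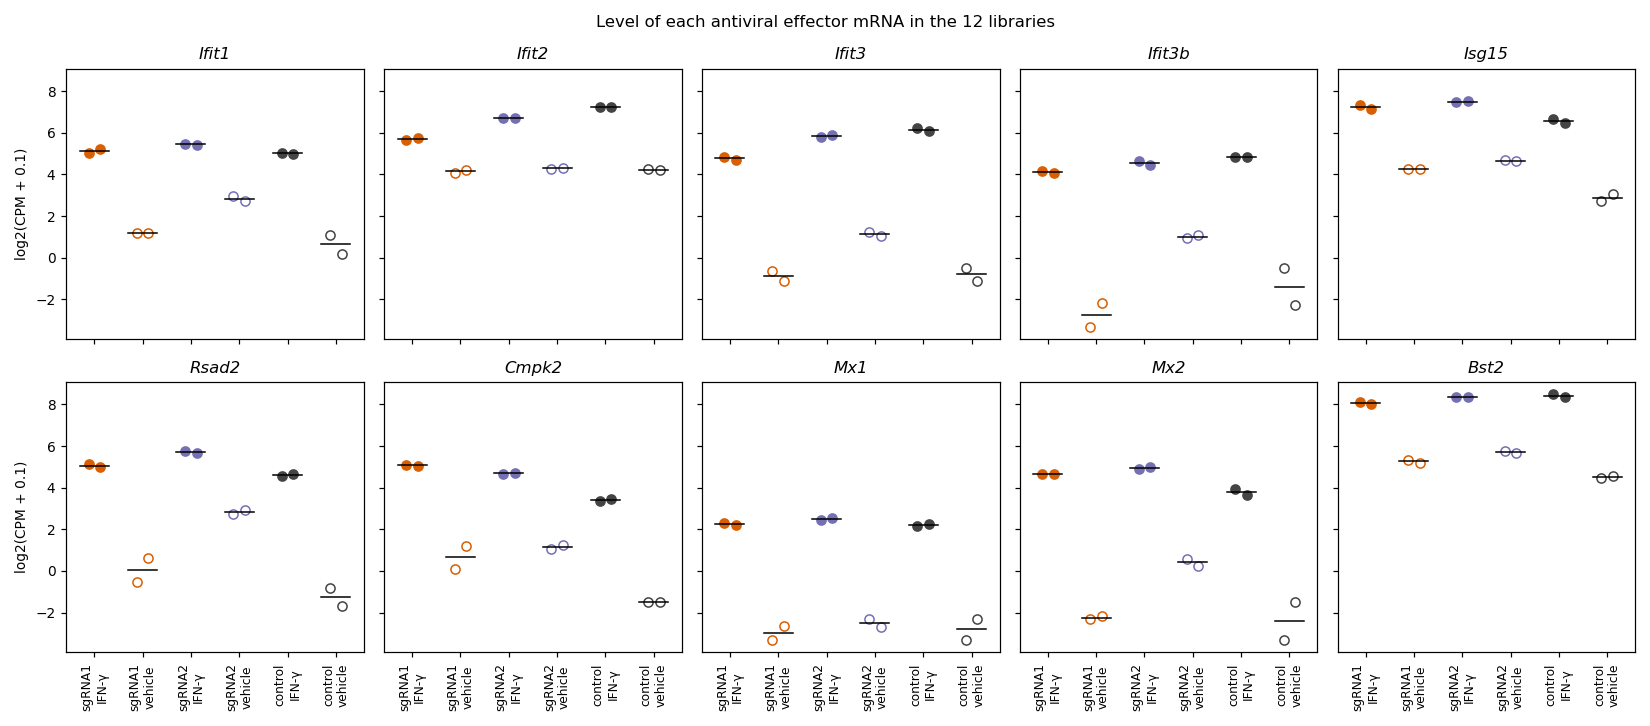
Level of each effector as log2(CPM + 0.1) in the 6 groups, with 1 point per library, filled for IFN-gamma and open for vehicle, and a line at the mean of 2 libraries. Filled points lie above open ones in each line. Open points of Rsad2 lie higher with sgRNA2 than in control, and filled points of Ifit2 and Ifit3 lie lower in both guide lines than in control.

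Among the IFIT genes, Ifit3 had the steepest response in control cells. Its libraries held 74.1 and 67.1 CPM after IFN-gamma, against 0.62 and 0.367 CPM in vehicle (7.14 ± 0.16, adjusted p = 2.58e-17). Ifit3b held 28.05 and 28.8 CPM after IFN-gamma, against 0.62 and 0.105 CPM in vehicle (6.26 ± 0.27), and its value was 8.0003 without the first vehicle library and 5.51 without the second. Ifit1 held 32.9 and 32.0 CPM after IFN-gamma, against 2.01 and 1.05 CPM in vehicle (4.40 ± 0.17). The shallowest response of the 10 in control cells was that of Ifit2. It held 151.4 and 149.7 CPM after IFN-gamma, against 18.9 and 18.6 CPM in vehicle (3.01 ± 0.06, adjusted p = 3.82e-18). Counted as 1 gene, Ifit3 and Ifit3b rose by 6.84 ± 0.14.

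Of the other effectors, the most abundant was Bst2. It held 360.3 and 322.8 CPM in control cells after IFN-gamma, against 21.9 and 23.8 CPM in vehicle (3.90 ± 0.07). Isg15 held 102.4 and 90.1 CPM after IFN-gamma, against 6.41 and 8.34 CPM in vehicle (3.71 ± 0.10). Per kilobase of exon, these 2 genes led in all 6 groups: in control cells after IFN-gamma Bst2 stood at 378.2 CPM per kb and Isg15 at 127.3, followed by Ifit3 (40.4) and Ifit2 (38.3), which lay close together. Mx1 was last in all 6 groups, at 1.19 CPM per kb in that group.

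Rsad2 and Cmpk2, the neighbouring pair on chromosome 12, rose from very low vehicle levels. Rsad2 held 23.5 and 25.5 CPM in control cells after IFN-gamma, against 0.465 and 0.21 CPM in vehicle (6.15 ± 0.24, and 6.83 without the first vehicle library). Cmpk2 held 10.2 and 10.9 CPM after IFN-gamma, against 0.258 and 0.262 CPM in vehicle (5.31 ± 0.29). On 5 and 5 vehicle counts, its ratio was 40.5 (95% counting interval 21.8 to 85.1). The MX genes were close to undetected in vehicle. Mx1 had 90 and 90 counts in control cells after IFN-gamma, against 0 and 2 in vehicle, a ratio of 86.2 (95% counting interval 23.5 to 717.1). In sgRNA1 cells Mx1 had 104 and 90 counts after IFN-gamma, against 0 and 1 in vehicle (ratio 170.4, interval 30.2 to 6767), and in sgRNA2 cells 99 and 148, against 2 and 1 (68.9, 23.3 to 336.5). Mx2 had 310 and 246 counts in control cells after IFN-gamma, against 0 and 5 in vehicle (106.5, 45.4 to 329.2), a ratio that rests on the second vehicle library alone. These intervals cover counting error only.

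The guide lines gave the same direction with other sizes. With sgRNA1 the log2 responses to IFN-gamma ran from 1.55 ± 0.06 for Ifit2 to 5.85 ± 0.18 for Ifit3 among members with more than 10 vehicle counts. Mx2, with 2 and 2 vehicle counts in sgRNA1 cells, had a ratio of 227.1 (95% counting interval 88.4 to 835.1), and Ifit3b, with 0 and 2, a ratio of 311.5 (85.9 to 2577). With sgRNA2 they ran from 2.42 ± 0.06 for Ifit2 to 4.73 ± 0.12 for Ifit3 among the 9 members other than Mx1. Rsad2 responded by 5.07 ± 0.19 in sgRNA1 cells (5.77 without the second vehicle library), 2.89 ± 0.13 in sgRNA2 cells and 6.15 ± 0.24 in control cells. In the plot of responses, the sgRNA2 points lie lowest for 9 of the 10 genes, all but Ifit2.

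**Figure D2:**
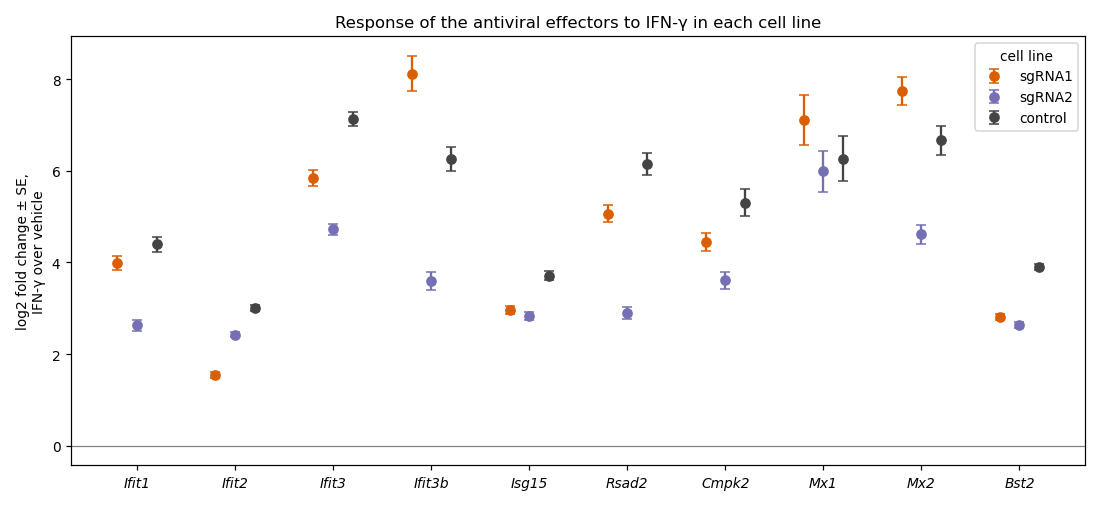
Log2 fold change of IFN-gamma over vehicle, ± SE, for each effector in the sgRNA1, sgRNA2 and control lines (2 libraries per group). All values are above 0, from 1.55 (Ifit2, sgRNA1) to 8.12 (Ifit3b, sgRNA1, fitted on 2 vehicle counts).

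In vehicle, sgRNA2 cells had higher levels of most effectors than control cells. Of the 10, 8 were higher and none lower, where 38.3% of all genes tested were higher and 35% lower, and the median log2 difference was 2.15, against 0.06 over all genes. With sgRNA1, 4 were higher (25.6% of all genes were) and 1 was lower (26.9% of all genes were), with a median of 0.21, against 0.03 over all genes. Both guide comparisons share the control libraries. Levels of the myeloid, fibroblast and plasmacytoid dendritic cell marker lists were also ordered sgRNA2, sgRNA1, control in vehicle, from high to low. The endothelial list was not, at 0.151 to 0.483 CPM with sgRNA1, 0.104 to 0.34 CPM with sgRNA2 and 0 to 0.0524 CPM in control. Of 5 myeloid markers, 3 were in the table and summed in vehicle to 2.23 to 3.93 CPM with sgRNA1, 7.88 to 9.59 CPM with sgRNA2 and 1.08 to 1.101 CPM in control. Csf1r made up most of this, at 7.52 and 9.02 CPM with sgRNA2 and 0.775 and 0.734 CPM in control, while Ptprc stayed at or below 0.567 CPM and Itgam at or below 0.156 CPM in vehicle. Of 4 fibroblast markers, 2 were in the table and summed to 18.8 to 20.6 CPM with sgRNA1, 32.0 to 32.2 CPM with sgRNA2 and 14.1 to 15.2 CPM in control, with Col1a1 at 3.89 and 3.97 CPM with sgRNA2 and 0.103 and 0.262 CPM in control. The 1 plasmacytoid dendritic cell marker of 3 in the table, Il3ra, held 1.01 and 1.09 CPM with sgRNA1, 1.97 and 1.36 CPM with sgRNA2 and 0.413 and 0.367 CPM in control. The part of these markers' sources in the effector values was not tested.

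Rsad2 showed the widest gap. It held 0.604 and 1.45 CPM with sgRNA1, 6.58 and 7.49 CPM with sgRNA2, and 0.465 and 0.21 CPM in control. The libraries of the 3 lines do not overlap, and sgRNA2 was higher than control by 4.35 ± 0.29 (adjusted p = 2.41e-10, and 5.02 without the first control library). The sgRNA1 difference for Rsad2, 1.53 ± 0.46 (adjusted p = 0.00886), was 2.21 without the first control library and lost its call without the second (1.08, adjusted p = 0.104) or the second sgRNA1 library (0.82, adjusted p = 0.247).

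Cmpk2, Isg15 and Bst2 were also called higher with both guides in vehicle, as Rsad2 was. Cmpk2 held 0.956 and 2.23 CPM with sgRNA1, 1.97 and 2.27 CPM with sgRNA2, and 0.258 and 0.262 CPM in control. Its differences were 2.54 ± 0.43 with sgRNA1 (1.85 without the second sgRNA1 library) and 2.99 ± 0.40 with sgRNA2. As ratios to the 10 control counts they were 5.91 (95% counting interval 2.99 to 13.0) and 8.12 (4.19 to 17.6). Isg15 held 19.3 and 19.3 CPM with sgRNA1, 26.0 and 24.6 CPM with sgRNA2, and 6.41 and 8.34 CPM in control, so that every guide library was above every control library (1.39 ± 0.12 and 1.78 ± 0.12). Bst2 held 39.9 and 36.8 CPM with sgRNA1, 53.8 and 50.3 CPM with sgRNA2, and 21.9 and 23.8 CPM in control (0.75 ± 0.08 and 1.19 ± 0.08).

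Ifit1, Ifit3, Ifit3b and Mx2 were higher in vehicle with sgRNA2, and none of them was called higher with sgRNA1. Ifit1 held 2.16 and 2.17 CPM with sgRNA1, 7.67 and 6.41 CPM with sgRNA2, and 2.01 and 1.05 CPM in control. Its sgRNA2 difference was 2.20 ± 0.20, and its sgRNA1 difference, 0.50 ± 0.26 (adjusted p = 0.118), was called only without the first control library (1.04, adjusted p = 0.00978). Ifit3 held 0.554 and 0.362 CPM with sgRNA1, 2.28 and 1.99 CPM with sgRNA2, and 0.62 and 0.367 CPM in control (-0.08 ± 0.43, adjusted p = 0.9, and 2.10 ± 0.30). Ifit3b had 0 and 2 counts with sgRNA1, 35 and 36 with sgRNA2, and 12 and 2 in control. Its lower call with sgRNA1 rests on those few counts (ratio 0.151, 95% counting interval 0.0166 to 0.656), and was lost without the first control library (-0.86, adjusted p = 0.632) or the first sgRNA1 library (-1.54, adjusted p = 0.213). The sgRNA2 difference of Ifit3b was 2.38 ± 0.41, and lay at 4.11 without the first control library and 1.62 without the second. Mx2 had 2 and 2 counts with sgRNA1, 27 and 19 with sgRNA2, and 0 and 5 in control, and sgRNA2 was 9.58-fold higher than control (95% counting interval 3.82 to 30.9). On the log2 scale the Mx2 difference was 3.20 ± 0.54, and 2.21 without the first control library, while without the second no control count remains.

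Ifit2 and Mx1 were not called with either guide in vehicle. Ifit2 held 16.9 and 18.6 CPM with sgRNA1, 19.3 and 20.0 CPM with sgRNA2, and 18.9 and 18.6 CPM in control. Its differences were -0.08 (95% interval -0.26 to 0.10) with sgRNA1 and 0.07 (-0.11 to 0.24) with sgRNA2. Upper quartile scaling, under which the all-gene median shifted by 0.10 with sgRNA1 and 0.17 with sgRNA2, called Ifit2 higher with sgRNA2 (0.24, adjusted p = 0.00688). It changed no member's called direction. Mx1, with at most 2 counts in any vehicle library, gave no usable difference.

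Vehicle levels of the guide lines stayed below those of IFN-gamma-treated control cells. As a percent of the control mean after IFN-gamma, Isg15 stood at 20.0% with sgRNA1, 26.3% with sgRNA2 and 7.66% in control in vehicle. Rsad2 stood at 4.19%, 28.8% and 1.38% in those groups, and Cmpk2 at 15.1%, 20.1% and 2.47%. For Ifit3 the corresponding values were 0.649%, 3.02% and 0.699%, the lowest sgRNA2 share of the 10 apart from Mx1 at 1.79%.

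After IFN-gamma the effectors differed from control in both directions. With sgRNA1, 4 were higher than control (31.6% of all genes tested were higher) and 4 were lower (33.3%), with a median of 0.07, against a value near 0 over all genes. With sgRNA2, 5 were higher (30.2% of all genes) and 2 lower (31.6%), with a median of 0.37, against 0.03. The members' counts are not far from these shares. Upper quartile scaling shifted the all-gene median with sgRNA2 by 0.11 here and changed no member's called direction. Isg15, Rsad2, Cmpk2 and Mx2 were higher with both guides, and Ifit2 and Ifit3 were lower with both. Both comparisons share the control libraries, and the share of all genes called alike with both guides was not counted.

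**Figure D3:**
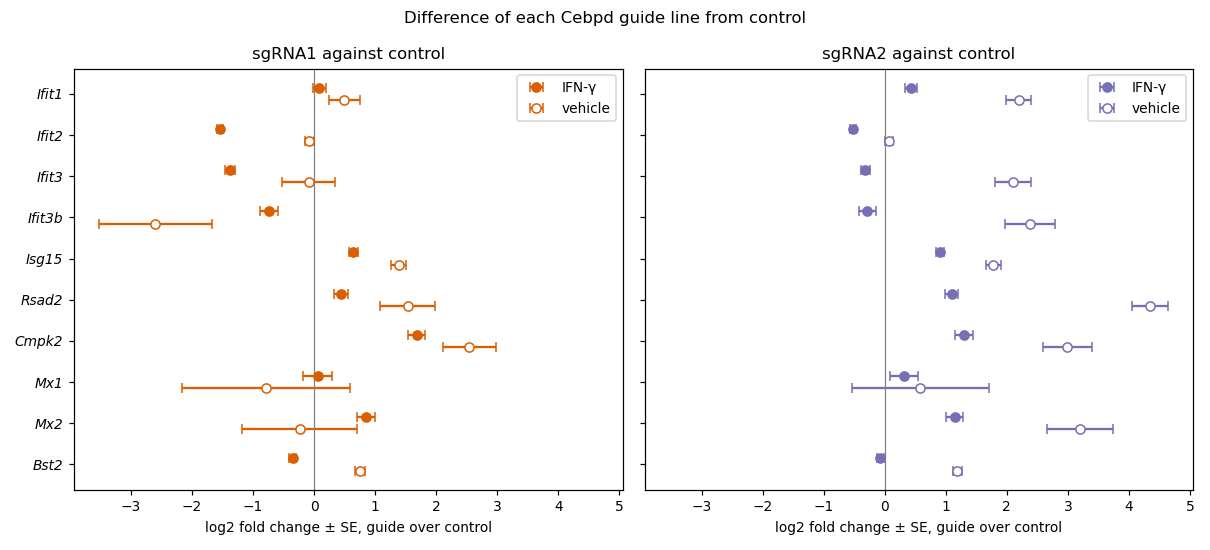
Log2 fold change of sgRNA1 over control (left) and sgRNA2 over control (right), ± SE, for each effector after IFN-gamma (filled) and in vehicle (open), with 2 libraries per group. After IFN-gamma, Ifit2 lies at -1.54 and -0.52 and Cmpk2 at 1.68 and 1.30. The open Ifit3b and Mx1 points have few counts behind them.

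Ifit2 differed most among the lower genes. Its libraries held 50.5 and 53.2 CPM with sgRNA1, 105.3 and 105.1 CPM with sgRNA2, and 151.4 and 149.7 CPM in control after IFN-gamma. The 3 lines stand apart with narrow spread, at -1.54 ± 0.05 with sgRNA1 (adjusted p = 5.9e-14) and -0.52 ± 0.05 with sgRNA2 (adjusted p = 3.12e-08). Ifit3 held 28.7 and 25.6 CPM with sgRNA1, 54.9 and 58.5 CPM with sgRNA2, and 74.1 and 67.1 CPM in control (-1.38 ± 0.08 and -0.32 ± 0.08). Without the first control library the sgRNA2 difference of Ifit3 was -0.25 (adjusted p = 0.0536), and with upper quartile scaling -0.21 (adjusted p = 0.0253). Ifit3b held 17.7 and 16.5 CPM with sgRNA1, 24.9 and 22.0 CPM with sgRNA2, and 28.05 and 28.8 CPM in control, and it was lower with sgRNA1 (-0.73 ± 0.15). Summing Ifit3 and Ifit3b gave -1.16 ± 0.07 with sgRNA1 and -0.31 ± 0.07 with sgRNA2.

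Cmpk2 differed most among the higher genes after IFN-gamma. It held 34.5 and 33.1 CPM with sgRNA1, 25.5 and 26.3 CPM with sgRNA2, and 10.2 and 10.9 CPM in control (1.68 ± 0.14 and 1.30 ± 0.14). Its neighbour Rsad2 had the other order of guides, with 34.8 and 32.0 CPM with sgRNA1, 53.3 and 51.3 CPM with sgRNA2, and 23.5 and 25.5 CPM in control (0.45 ± 0.11 and 1.09 ± 0.11). Isg15 held 158.8 and 142.5 CPM with sgRNA1, 177.2 and 183.5 CPM with sgRNA2, and 102.4 and 90.1 CPM in control (0.65 ± 0.07 and 0.91 ± 0.07). Mx2 held 24.8 and 25.0 CPM with sgRNA1, 29.3 and 31.9 CPM with sgRNA2, and 14.99 and 12.6 CPM in control (0.85 ± 0.14 and 1.15 ± 0.14). For these 4 genes both guide libraries lay above both control libraries, as they did for 40.8% of all genes tested with sgRNA1 and 40.5% with sgRNA2.

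The other members moved little or with 1 guide. Ifit1 was higher with sgRNA2, at 44.2 and 43.1 CPM, against 32.9 and 32.0 CPM in control (0.43 ± 0.10, adjusted p = 0.00152). With sgRNA1 it held 32.1 and 36.6 CPM, and the difference from control was 0.08 (95% interval -0.17 to 0.34). Bst2 was lower with sgRNA1, at 281.6 and 255.6 CPM, against 360.3 and 322.8 CPM in control (-0.35 ± 0.06), and with sgRNA2 it differed by -0.07 (95% interval -0.21 to 0.07). For Mx1 the differences were 0.06 (-0.51 to 0.63) with sgRNA1 and 0.31 (-0.24 to 0.87) with sgRNA2, neither called.

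The guide lines also differed from each other. In vehicle, 7 of the 10 effectors were higher with sgRNA2 than with sgRNA1 and none was lower (33.2% and 29.1% of all genes tested). The largest of them on more than 10 counts per group was Rsad2 (2.82 ± 0.24, and 3.52 without the second sgRNA1 library), followed by Ifit3 (2.18 ± 0.31) and Ifit1 (1.70 ± 0.19). After IFN-gamma, 7 were higher with sgRNA2 (23.4% of all genes) and Cmpk2 was lower (24.5%), at -0.38 ± 0.13 (adjusted p = 0.022). That Cmpk2 call was lost when any 1 of the 4 libraries was left out. Ifit2 (1.02 ± 0.05) and Ifit3 (1.06 ± 0.08) had the widest gaps after IFN-gamma.

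The response itself, IFN-gamma over vehicle on the log scale, was smaller in the guide lines for several members. With sgRNA2 it was smaller than in control for 9 of the 10 (34.7% of all genes tested had a lower value) and larger for none (30.4%). With sgRNA1 it was smaller for 4 (28.2% of all genes), namely Ifit2, Ifit3, Isg15 and Bst2, and called larger for none (26.9%). The Ifit3b value with sgRNA1 was in the other direction, 1.86 ± 0.96 (adjusted p = 0.112), and was called larger without the second control vehicle library (2.62, adjusted p = 0.0112) or the second sgRNA1 vehicle library (5.16, adjusted p = 0.0364, fitted against a library with no Ifit3b count). The combination of levels behind this differed by gene. For Rsad2 with sgRNA2 the response differed by -3.26 ± 0.35 (-3.93 without the first control vehicle library), with levels above control both after IFN-gamma and in vehicle. For Ifit2 with sgRNA1 it differed by -1.46 ± 0.09, with a vehicle level that was not called different and a level below control after IFN-gamma. The Ifit3 value with sgRNA1, -1.29 ± 0.46 (adjusted p = 0.0226), was lost without the second control vehicle library (-0.97, adjusted p = 0.125), without the first sgRNA1 vehicle library (-0.94, adjusted p = 0.286) and with Ifit3b counts added (-0.45, adjusted p = 0.412).

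The genes that act before the effectors were described by lists chosen with earlier results of these data known. Of 7 ISGF3 and IRF factor genes, 6 rose and 1 fell with IFN-gamma in each line, where 31.7% of all genes rose in sgRNA1, 30.5% in sgRNA2 and 36.4% in control cells. After IFN-gamma, 5 were lower and 2 higher with sgRNA1 than in control (33.3% and 31.6% of all genes, median of the list -0.50), and 4 lower and 2 higher with sgRNA2 (31.6% and 30.2% of all genes, median of the list -0.23). Irf1, which binds ISRE-like sites, was lower after IFN-gamma (-0.62 ± 0.05 with sgRNA1 and -0.31 ± 0.05 with sgRNA2), but higher in vehicle by 1.00 ± 0.06 with sgRNA1 and 2.36 ± 0.06 with sgRNA2. Stat2 was lower after IFN-gamma with both guides (-0.33 ± 0.06 and -0.23 ± 0.06) and Irf9 with sgRNA1 (-0.50 ± 0.07). In vehicle, Stat2 was higher with sgRNA1 (0.34 ± 0.10) and sgRNA2 (1.09 ± 0.09), and so was Irf9 (0.61 ± 0.12 and 1.45 ± 0.11). Of the 7 genes, 5 were higher and 1 lower with sgRNA1 in vehicle (25.6% and 26.9% of all genes). With sgRNA2, 5 were higher and none lower in vehicle (38.3% and 35% of all genes).

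Of 8 interferon receptor and kinase genes, 7 were lower after IFN-gamma with each guide than in control and none was higher (medians -0.80 and -0.53), where 33.3% of all genes were lower and 31.6% higher with sgRNA1, and 31.6% lower and 30.2% higher with sgRNA2. Jak2, the IFN-gamma receptor kinase, differed by -1.04 ± 0.05 with sgRNA1 and -0.90 ± 0.05 with sgRNA2, and Jak1 by -0.46 ± 0.04 and -0.42 ± 0.04. The type I receptor genes Ifnar1 (-0.80 ± 0.06 and -0.57 ± 0.06) and Ifnar2 (-0.78 ± 0.07 and -0.39 ± 0.06) were lower as well. In vehicle, 3 were higher with sgRNA1 than in control (25.6% of all genes) and all 8 with sgRNA2 (38.3%). Of 11 interferon genes listed, Ifnb1 was in the table and was too low to be tested. It had 10 and 6 counts with sgRNA1, 5 and 8 with sgRNA2, and 0 and 2 in control after IFN-gamma, and at most 1 count in any vehicle library. The part of these upstream genes in the effectors' levels was not tested.

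All 5 genes listed for ISG15 conjugation, among them Usp18 for its removal, rose with IFN-gamma in every line. The share of all genes that rose was 31.7% in sgRNA1, 30.5% in sgRNA2 and 36.4% in control cells. After IFN-gamma, Ube2l6, the ISG15-conjugating enzyme, was higher with both guides (0.43 ± 0.07 and 0.21 ± 0.07) and Trim25, a ubiquitin ligase of RIG-I signalling that also takes ISG15, was lower with both (-0.37 ± 0.04 and -0.30 ± 0.04). Herc6, the mouse ISG15 ligase, was not called after IFN-gamma with either (0.04 ± 0.06 and 0.05 ± 0.06). Of 18 other antiviral effectors tested, 4 were higher and 10 lower with sgRNA1 after IFN-gamma (31.6% and 33.3% of all genes, median of the list -0.33), and 4 higher and 11 lower with sgRNA2 (30.2% and 31.6% of all genes, median of the list -0.16). Samhd1, a dNTPase that starves reverse transcription, differed by -0.53 ± 0.04 and -0.49 ± 0.04, and Ifitm3, which blocks virus entry, by -0.30 ± 0.05 and -0.19 ± 0.05. In vehicle the same list had 11 higher and 3 lower with sgRNA1 (25.6% and 26.9% of all genes, median of the list 0.78), and 12 higher and 4 lower with sgRNA2 (38.3% and 35% of all genes, median of the list 1.42).

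**Figure D4:**
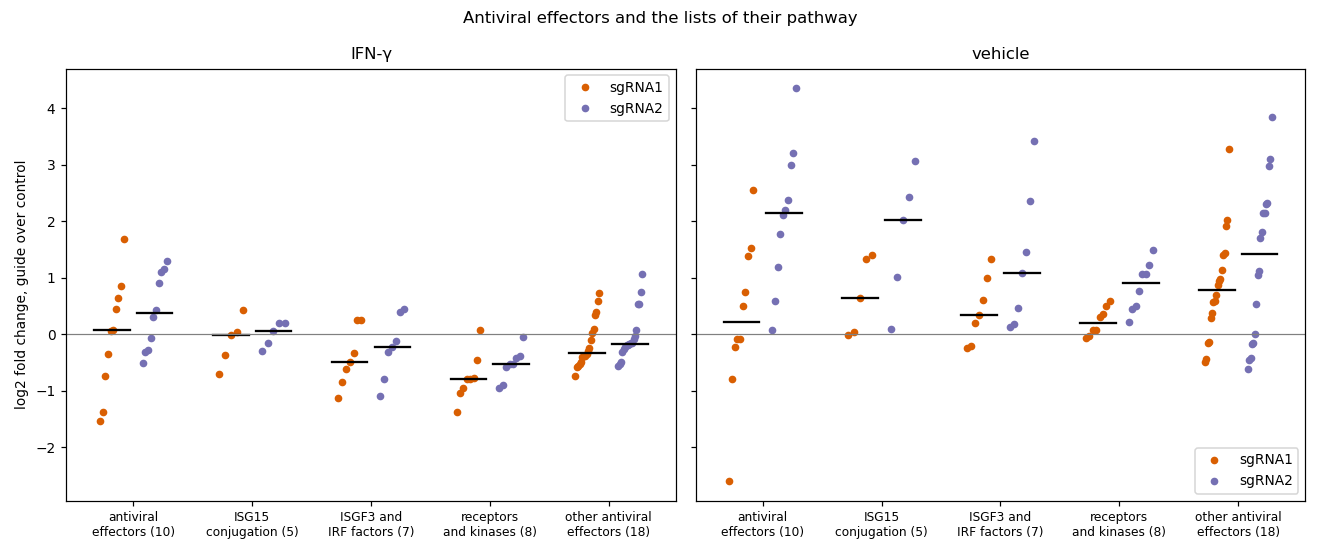
Log2 fold change of sgRNA1 and of sgRNA2 over control, 1 point per tested gene with a line at the median, for the 10 effectors and 4 lists of their pathway, after IFN-gamma (left) and in vehicle (right). After IFN-gamma the receptors and kinases have medians of -0.80 and -0.53, and the effectors 0.07 and 0.37. In vehicle the effectors have medians of 0.21 with sgRNA1 and 2.15 with sgRNA2.

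The genes whose profile over the 6 groups lay closest to the effectors' mean were Usp18, Phf11d, Gbp9, Parp14 and Trim30a, out of 10260 other genes averaging 5 CPM or more. Likeness was the root mean square difference between centred log2 CPM, and was 0.193 for Usp18, which encodes the protease that removes ISG15, 0.219 for Phf11d, 0.298 for Gbp9, 0.327 for Parp14 and 0.34 for Trim30a. The members, which unlike these 5 were not picked by closeness, lay from 0.354 (Ifit1) to 1.23 (Ifit2) from their own mean. Usp18 differed after IFN-gamma by -0.02 ± 0.08 with sgRNA1 and 0.21 ± 0.08 with sgRNA2, and in vehicle by 0.63 ± 0.28 and 2.42 ± 0.21. These distances over 6 group means describe the profiles and carry no test.

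**Figure D5:**
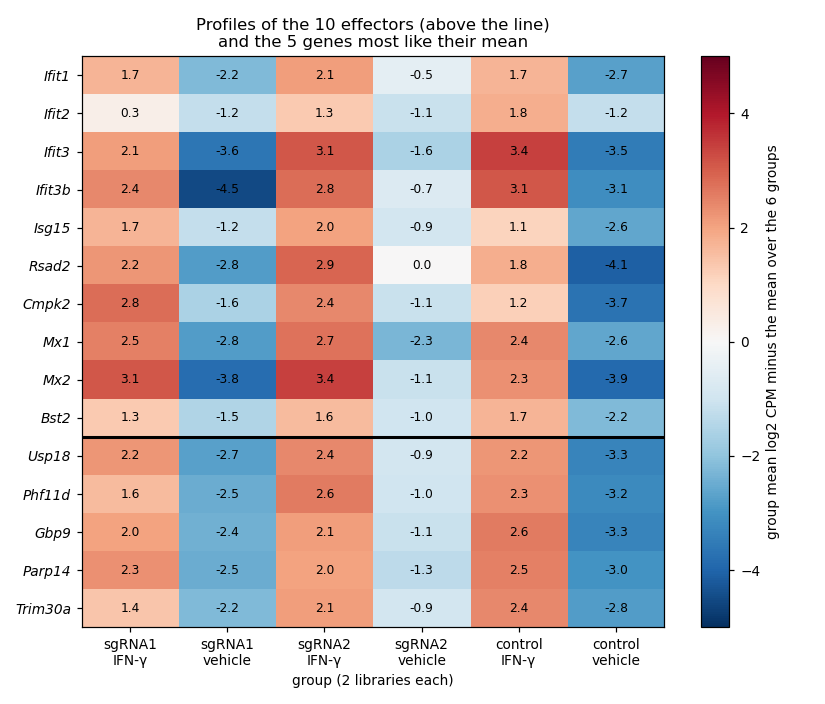
Group mean log2 CPM of each gene minus its own mean over the 6 groups (colour and number), for the 10 effectors above the line and below it the 5 other genes closest to their mean. Ifit2 has the flattest profile. Cmpk2 and Mx2 are higher in both IFN-gamma-treated guide groups than in the control one, and Ifit2, Ifit3 and Ifit3b are lower.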

How the data were processed

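The deposited table holds raw whole-number counts of reads for each gene. Tools listed in the submitters' processing notes, with no role given, are DESeq2 1.10, HTSeq (no version) and STAR 2.4.0, with build mm10. Per the labels' protocols, libraries came from a TruSeq RNA kit. No source used here states the annotation, strand setting or read length, so a window of 50 bases stood for a read in the check of shared sequence. Replicates share only numbers across groups, and no pair of libraries agreed within sampling noise (chi-square per degree of freedom 2.70 to 6.91).

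Genes were kept with edgeR 4.0.16 filterByExpr (minimum count 10, total 15), scaled by TMM (factors 0.963 to 1.09) and fitted with 1 term per group, giving 6 residual degrees of freedom. The SE is the absolute log2 fold change over the square root of F, and intervals of a difference used this SE and those degrees of freedom. Ratios with a counting interval are given beside or in place of fitted folds where an arm had 10 counts or fewer. CPM uses the TMM-scaled sizes. Positions come from GENCODE vM21. The fit was tested on simulated data. Alternatives were DESeq2 1.42.0, its size factors, upper quartile scaling, no filter, a replicate block, only the groups compared, each library left out and, added after seeing the data, Ifit3 and Ifit3b summed. The members and lists were chosen with earlier results of these data known. All 10 members are named, with at most 4 genes per list by mean CPM and the 5 genes closest in profile. A gene of the pathway lists is not reported here by name.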

Additional observations from a re-analysis of the deposited data

Results flagged for a closer look

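The size of the IFN-gamma response differed between a guide line and control, by the interaction term of the edgeR fit, for 13 of 20 pairs of effector and guide. These were 9 of 10 effectors with sgRNA2 and 4 of 10 with sgRNA1. Of all genes tested, 34.7% had a lower value with sgRNA2 and 30.4% a higher one, against 28.2% and 26.9% with sgRNA1. All 13 differences were negative, that is, the log2 response was smaller in the guide line. With sgRNA2 they were -3.26 for Rsad2, -2.66 for Ifit3b, -2.41 for Ifit3, -2.05 for Mx2, -1.77 for Ifit1, -1.69 for Cmpk2, -1.26 for Bst2, -0.87 for Isg15 and -0.59 for Ifit2. With sgRNA1 they were -1.46 for Ifit2, -1.29 for Ifit3, -1.10 for Bst2 and -0.74 for Isg15. The edgeR adjusted p of these 13 ran from 3.55e-10 (Ifit2, sgRNA1) to 0.0226 (Ifit3, sgRNA1). The Mx2 value with sgRNA2 was not called without the first control vehicle library, which had no Mx2 count (-1.07, adjusted p = 0.117). The Ifit3b value with sgRNA2 was -4.40 without the first control vehicle library and -1.90 without the second. The Ifit3 value with sgRNA1 was -0.97 without the second control vehicle library and -0.94 without the first sgRNA1 vehicle library. With Ifit3b counts added, that Ifit3 value was not called (-0.45, edgeR adjusted p = 0.412). Both guides are set against the same control libraries.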

How the results depend on the processing

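Of 666 member values under other settings, 661 kept their side of the threshold, 4 gained a call and 1 lost it (Ifit3 and Ifit3b summed). None that was called in either fit reversed. Of 520 values with a library left out, 18 lost a call and 9 gained one, and again none called in either fit reversed. The direction of values uncalled in both fits was not compared. A fit with a lone library in an arm assumes that it varies like the other groups. The number of members called between sgRNA2 and sgRNA1 after IFN-gamma, 8 as reported, was 5 to 7 with a library left out, where Ifit1, Ifit3b, Cmpk2 and Isg15 each lost the call at least once. Under the other settings, the calls gained were Ifit2 in vehicle under upper quartile scaling (0.24 for sgRNA2 against control, 0.21 against sgRNA1), and Ifit3b (-0.27, sgRNA2 against control) and Mx2 (0.31, sgRNA2 against sgRNA1) after IFN-gamma when only the groups compared were fitted. With a library left out, the calls gained in the response of sgRNA1 minus that of control were Ifit1 (-0.96), Rsad2 (-1.76 and -1.63), Cmpk2 (-1.39) and Ifit3b (2.62 and 5.16), and in vehicle Ifit1 with sgRNA1 against control (1.04) and Ifit2 (0.21) and Cmpk2 (1.13) with sgRNA2 against sgRNA1. Upper quartile scaling made 62.8% of calls higher in vehicle with sgRNA1, against 48.8% as reported, 62.5% against 52.3% with sgRNA2, and 38.1% against 51.1% for IFN-gamma in sgRNA2 cells, where the median of all genes moved by -0.12. Depth limits Mx1, Mx2, Ifit3, Ifit3b, Rsad2 and Cmpk2 in vehicle, with 0 to 12 counts per control library.

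Replicates with the same number showed no shared deviation: over 15 pairs of groups the correlation of deviations was -0.0788 to 0.0642. Such a correlation cannot show whether libraries with the same number were prepared together, and the labels do not say. With a replicate block, 9539 genes were called for IFN-gamma in control, against 9581 as reported, and none of the 110 member results gained or lost a call.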

Other observations

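Ifit1bl1 and Ifit1bl2, IFIT-like genes that are not members, had few counts. Ifit1bl2 had 27 and 30 counts with sgRNA1, 41 and 41 with sgRNA2 and 29 and 22 in control after IFN-gamma. In vehicle it had 0 and 4 with sgRNA1, 6 and 15 with sgRNA2 and 0 and 0 in control. The libraries of sgRNA2 lay above those of the other lines in vehicle, as for Ifit1, with which Ifit1bl2 shares part of its sequence. Ifit1bl1 had 5 to 18 counts per library after IFN-gamma and at most 3 in vehicle.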
